A study of Mus musculus with 115 samples.

Results

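The 17 arrays described here measured RNA of inguinal adipose tissue from gonadectomised mice that carried a capsule without hormone. They were chosen by label alone: the tissue, the blank capsule (B) and the genotype. The series holds 115 arrays, of which 55 are of adipose tissue and 60 of liver. The other adipose groups, used here for comparison and in the shared fit, had capsules with testosterone (T, 5 mM) or 17beta-estradiol (E, 50 µg). The mice belong to the FCG mouse model on a C57BL/6J background (B6.Cg-TgSry2Ei Srydl1Rlb/ArnoJ), in which the Y chromosome has lost the testis-determining gene Sry (written XY-) and an Sry transgene is inherited apart from the sex chromosomes. Mice with the transgene form testes whether they are XXSry or XY-Sry, and mice without it form ovaries whether they are XX or XY-. All were gonadectomised at 75 days of age, given the capsule at once and killed 3 weeks later, so that no gonad was present in either group when tissue was taken. The former-testis group held 9 arrays (5 XXSry B and 4 XY-Sry B) and the former-ovary group held 8 (3 XX B and 5 XY- B). The question is which transcripts still differ by the type of gonad a mouse once had, and which of them belong to mammary epithelium rather than to adipocytes and stroma. Gonad type travels with the Sry transgene in this design, and the labels say that gonadal males and females were caged apart, so gonad type, transgene and cage cannot be told apart.

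As background, the inguinal fat pad of the mouse is also the bed of a mammary gland. The gland is a branching tree of ducts with an inner layer of luminal cells, which make milk, and an outer layer of basal, contractile myoepithelial cells, and it grows through fat and collagen-rich stroma. In fetal mice with testes, androgen makes the mammary bud regress, so adult males have little or no ductal tree, while the fat pad itself forms in both sexes. A piece of inguinal fat therefore holds adipocytes, fibroblasts, vessels, immune cells and a lymph node, and, depending on its donor, ducts.

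The files give an intensity for each of 25697 probes on each array, and all levels below are background-corrected, quantile-normalised intensities on the log2 scale. Raw array medians ran from 132.9 to 221.2. Between 40.5% and 47.2% of probes were detected (detection p under 0.01), with a median of 44.8% in former-testis arrays and 45.5% in former-ovary arrays. Of all probes, 14636 were detected on at least 3 of the 55 adipose arrays and were tested. Xist, the RNA that coats the inactive X chromosome, was 7.03 to 7.59 in the XX and XXSry arrays and 4.82 to 5.61 in the XY- and XY-Sry arrays. The Y-linked Eif2s3y was 8.05 to 9.48 in the latter and 4.65 to 5.04 in the former, apart from XXSry B replicates 3 and 4 at 6.31 and 6.41. Replicate numbers only name an array, and since no label states one mouse per array, the p-values measure the spread between these arrays.

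Inguinal fat of former-testis mice differed from that of former-ovary mice mainly by transcripts that were lower. The difference was taken as the mean of the XXSry B and XY-Sry B group means minus the mean of the XX B and XY- B group means, so a negative value means lower after testes. With limma and a Benjamini-Hochberg adjusted p under 0.05, 265 probes differed, which is 1.81% of those tested (6.78% at an unadjusted p under 0.05). Of these, 248 probes for 213 gene symbols were lower (1.69%) and 17 probes for 16 symbols were higher (0.116%). The higher count was the less stable: leaving out XX B replicate 2 gave 3 higher and 256 lower probes, leaving out XXSry B replicate 2 gave 8 and 240, and leaving out XX B replicate 3 gave 9 and 194. It was 11 without any one of XXSry B replicates 1 and 3, XY-Sry B replicates 1 and 3 and XY- B replicate 3. The called falls had a median of -1.316 and 53 of them were 4-fold or more, whereas the called rises had a median of 0.7474, reached at most 1.116 and included 4 of 2-fold or more. The median over all tested probes was 0.02732.

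Some of the lower transcripts were below detection in former-testis fat. Of the 248 probes, 80 were detected in none of the 9 former-testis arrays (32.3%, against 6.41% of all tested probes), 110 in 1 to 8 of them and 58 in all 9. By contrast, 140 were detected in all 8 former-ovary arrays. For 73 of the 248, every former-testis array lay below every former-ovary array, a separation seen in 0.526% of all tested probes. The 248 were called for low former-testis values, so both counts are raised over all tested probes by the selection itself. Probes undetected in every former-testis array entered the test only through other adipose groups. All 248 were lower both within XX mice and within XY mice. The called difference is the mean of both, so such agreement is favoured by the selection. Arrays were grouped into slides by the number at the start of each array title, which is read here as a slide number. On that reading, the 17 arrays lay on 5 slides that each held both gonad types, and 207 of the 248 were lower on all 5. On slides 3 and 4 the former-testis arrays were XXSry and the former-ovary arrays XY-, so gonad type and sex chromosomes are mixed there. The slides hold the same arrays that called the probes, so their agreement is not separate support. In tissue RNA, fewer cells of a type and less RNA per cell cannot be told apart.

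Luminal epithelial genes made up the strongest block. Of 27 tested genes on the luminal list, 19 were called lower and none higher, with a median difference of -1.70. Over all tested probes, 1.69% were called lower. The marker lists used here and below were chosen with earlier results of these data known, so their counts are not separate support. Foxa1, a transcription factor that opens chromatin for steroid receptors in luminal cells, was 10.36, 10.21 and 10.79 in XX mice, 9.03, 9.61, 9.52, 9.18 and 10.24 in XY- mice, 5.76, 6.42, 5.28, 6.79 and 5.09 in XXSry mice, and 5.52, 6.85, 5.64 and 4.98 in XY-Sry mice. The lowest former-ovary array was thus more than 2 log2 units above the highest former-testis array, and only 3 former-testis arrays detected the probe. Its fitted difference was -4.18 ± 0.44 (SE, adjusted p = 2.55e-09). On the 5 slides it was -3.78, -4.09, -2.61, -3.78 and -5.15.

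Tmprss2, a transmembrane serine protease of epithelial cells, had the largest difference of all named genes at -5.26 ± 0.49 (SE, adjusted p = 1.15e-10). Its former-testis arrays ran from 4.68 to 7.24 (median 5.14) and its former-ovary arrays from 9.55 to 11.99 (median 10.74). Krt18, a keratin of luminal cells, ran from 4.64 to 7.70 (median 5.57) against 8.16 to 10.95 (median 8.90), again without overlap, and differed by -3.65 ± 0.51 (adjusted p = 1.47e-06). Its partner Krt8 was detected in 8 of 9 former-testis arrays and the groups overlapped, from 4.88 to 9.51 against 8.55 to 11.58, with a difference of -2.65 ± 0.57 (adjusted p = 0.00231). Only 3 former-testis arrays detected Krt18. The secreted protein Wfdc2 differed by -4.32 ± 0.71 (adjusted p = 3.9e-05). Its former-testis arrays spread from 4.71 to 10.67, and the highest of them lay just below the lowest former-ovary array at 11.06. Elf5, the transcription factor of milk-producing luminal progenitors, differed by -1.97 ± 0.28 (adjusted p = 1.44e-06).

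Among other luminal genes, the prolactin receptor Prlr was still detected in all 9 former-testis arrays, from 8.15 to 10.16, but lay below every former-ovary array (10.75 to 12.86). Gata3, a transcription factor that maintains luminal cells, was 4.58 to 7.50 against 8.57 to 10.80, with a difference of -2.89. The E-cadherin gene Cdh1 differed by -1.77 and the water channel Aqp5 by -3.40. The 8 tested luminal genes that were not called ran from -1.49 (Cxcl15) to 0.21 (Areg), and they include Ovol2 at -0.16, which was detected in every array of both groups.

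The basal and myoepithelial list was lower in fewer members: 7 of 13 tested genes were called, none higher, and the median was -1.14. Krt14, the basal keratin, was 11.80, 10.59 and 11.61 in XX mice, 10.04, 10.42, 10.37, 9.62 and 11.36 in XY- mice, 4.99, 8.94, 6.87, 9.82 and 6.85 in XXSry mice, and 6.87, 7.79, 7.84 and 6.72 in XY-Sry mice. XXSry B replicate 4 at 9.82 reached into the former-ovary range, and 8 of 9 former-testis arrays detected the probe. The difference was -3.45 ± 0.63 (SE, adjusted p = 0.000234). Krt17 differed by -3.06 ± 0.43 (adjusted p = 1.27e-06), with XXSry B replicate 2 at 7.98 while the other former-testis arrays stayed at or below 6.13. Krt5, the keratin that pairs with Krt14, was not detected in any former-testis array (mean 5.26 ± 0.39, SD) and had a mean of 6.61 ± 0.84 (SD) in former-ovary arrays, which makes it at least 1.55-fold higher there (adjusted p = 7.44e-05). Such a bound sets the former-ovary mean, in which undetected arrays also count, against the dimmest detected signal of each former-testis array. Fermt1, an integrin activator, was likewise at least 1.22-fold higher (means 5.01 and 6.26, adjusted p = 1.23e-07). Krt5 was detected in 6 and Fermt1 in 5 of the 8 former-ovary arrays.

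Not every basal gene moved. Trp63, the basal lineage transcription factor, had a median of 8.34 in former-testis and of 8.31 in former-ovary arrays and was detected in all 17, with a difference of -0.20 ± 0.24 and an unadjusted 95% interval of -0.69 to 0.28. The integrin subunit gene Itgb4 was also detected throughout and differed by -0.30 ± 0.22. The laminin subunit gene Lamb3 was detected in all 17 arrays and did fall, by -1.27 ± 0.22 (adjusted p = 8.31e-05).

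Of 17 tested junction genes, 7 were called lower and none higher, with a median of -0.70. The tight junction gene Cldn3 ran from 4.66 to 6.79 (median 4.99) in former-testis and from 7.51 to 9.60 (median 8.11) in former-ovary arrays, a difference of -3.22 ± 0.47 (adjusted p = 3.06e-06). Cldn4 differed by -3.16 ± 0.48 (adjusted p = 6.42e-06), also without overlap. F11r, a junction protein that endothelial and blood cells also make, had medians of 8.54 and 8.52 and differed by -0.15 ± 0.14.

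Of 9 tested milk and secretion genes, 4 were called lower and none higher, with a median of -0.64. Csn3, the kappa-casein gene, was 11.95, 11.30 and 12.20 in XX mice, 10.43, 11.01, 10.69, 10.97 and 11.93 in XY- mice, 4.57, 7.86, 5.74, 8.74 and 6.83 in XXSry mice, and 6.56, 8.49, 7.43 and 6.56 in XY-Sry mice. Those groups did not overlap, and the difference was -4.41 ± 0.67 (SE, adjusted p = 7.19e-06). Ltf, the iron-binding lactoferrin, differed by -4.39 ± 0.59 (adjusted p = 6.37e-07), with a dimmer Ltf probe at -0.66 that was not called, and Btn1a1, a protein of the milk fat globule membrane, by -3.61 ± 0.43 (adjusted p = 3.85e-08). Lcn2, a secreted siderophore binder, was the fourth at -2.86. Xdh and Mfge8, which fat and stroma also make, were not called, at -0.17 and -0.12. Muc1 was not called on its brightest probe, at -0.43, but 2 of its 4 probes were called lower, with a lowest estimate of -1.35. Glycam1 spread from 5.10 to 13.45 in former-testis and from 5.24 to 13.42 in former-ovary arrays and differed by 0.09 ± 1.41. It is also a product of lymph node vessels, and the lymphocyte and lymph node score of the arrays ran from -2.17 to 2.67 and from -2.22 to 2.79 in the same groups.

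**Figure D1:**
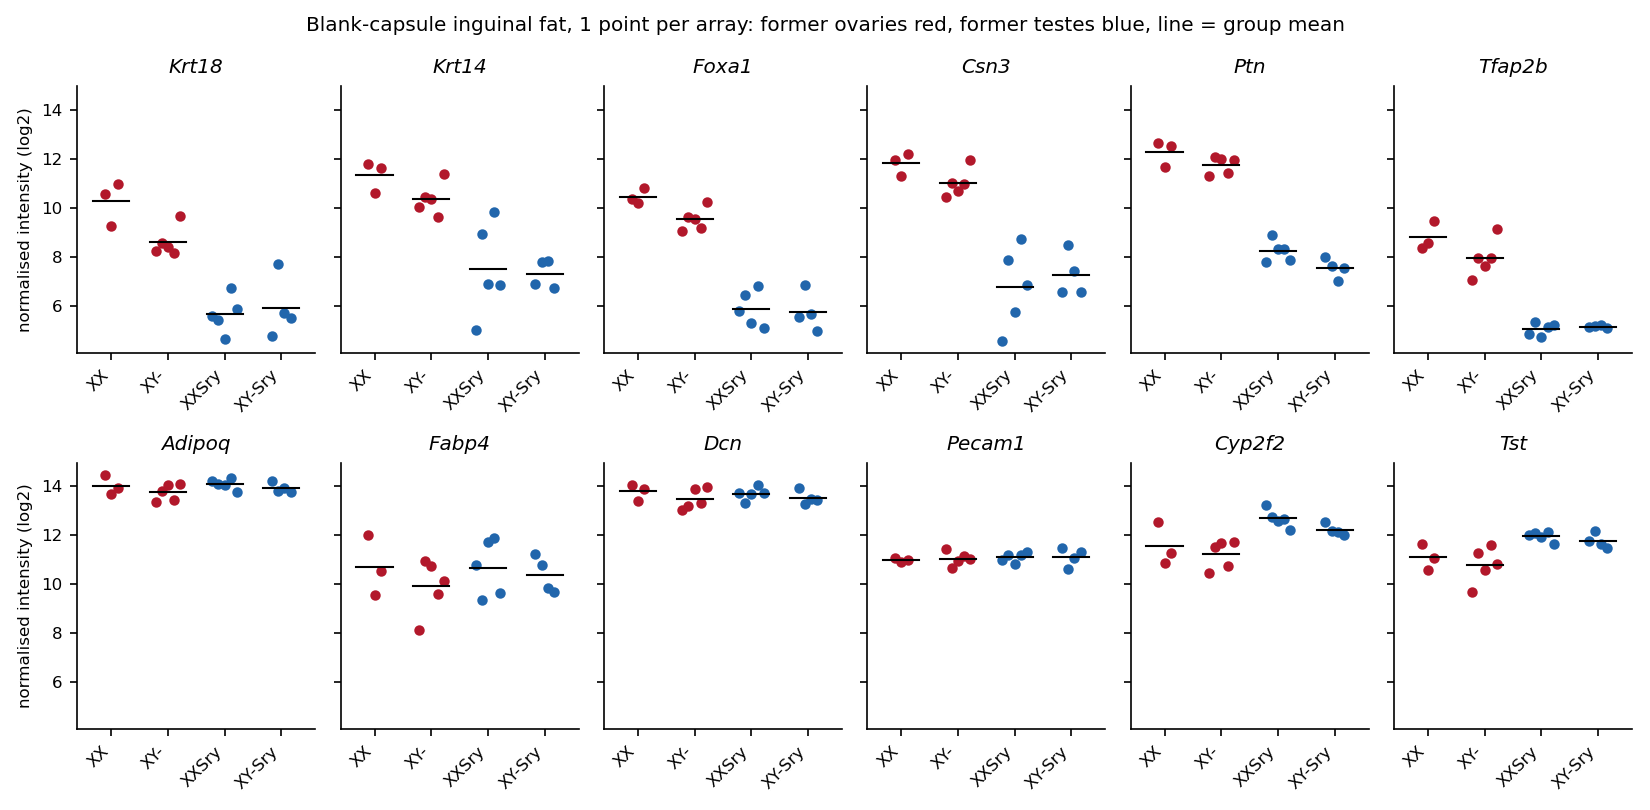
Normalised intensity (log2, vertical axis) of 12 genes in each of the 17 blank-capsule arrays by genotype (horizontal axis). Red points are former-ovary mice, blue points former-testis mice, and black lines are group means. Foxa1, Csn3, Ptn and Tfap2b separate the gonad types without overlap, Adipoq, Fabp4, Dcn and Pecam1 overlap, and Cyp2f2 and Tst are higher after testes.

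The called-lower set included genes of the AP-2 family of transcription factors, Tfap2a (-1.75 ± 0.22), Tfap2b and Tfap2c (-3.44 ± 0.38, with -2.64 on another probe and -0.72, not called, on the third), so the promoter windows of the set were searched for the AP-2 motif GCCNNNGGC, whose letters read the same on both strands. These genes and the motif were picked after the calls were known. Windows are RefSeq sequence of build GRCm38.p6, 250 bases before to 50 after a gene's start. The motif was found for 32% of 150 called-lower genes with a window and for 28.4% of 8228 tested genes with one (18.5% of all genes in the table). It was also found for 37.5% of 24 genes with a window on the adipocyte list described below. In the windows of the called-lower genes Foxa1, Ptn, Tfap2b and Krt14 no match was found. Neither the palindromic estrogen response element nor the androgen response element was found in a window of the called-lower genes, and each was found in 1 of the tested genes. The windows of a luminal keratin and a claudin that hold an AP-2 match, and that of the gene with the largest difference, which holds none, are shown with the match in capitals.
Krt18 (chr15:102027966-102028265, + strand): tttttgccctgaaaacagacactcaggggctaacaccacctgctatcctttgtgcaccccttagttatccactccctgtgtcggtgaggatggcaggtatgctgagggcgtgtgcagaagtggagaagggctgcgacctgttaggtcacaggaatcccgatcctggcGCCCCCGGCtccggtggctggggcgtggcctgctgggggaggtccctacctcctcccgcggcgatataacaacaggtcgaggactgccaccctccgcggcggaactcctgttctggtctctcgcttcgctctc
Cldn3 (chr5:134985964-134986263, + strand): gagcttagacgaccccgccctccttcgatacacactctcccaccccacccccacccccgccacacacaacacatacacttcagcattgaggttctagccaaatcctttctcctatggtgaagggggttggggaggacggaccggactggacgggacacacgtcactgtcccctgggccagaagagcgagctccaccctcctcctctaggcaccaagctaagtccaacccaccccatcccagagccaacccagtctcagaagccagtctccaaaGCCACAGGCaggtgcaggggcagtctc
Tmprss2 (chr16:97611146-97611445, - strand): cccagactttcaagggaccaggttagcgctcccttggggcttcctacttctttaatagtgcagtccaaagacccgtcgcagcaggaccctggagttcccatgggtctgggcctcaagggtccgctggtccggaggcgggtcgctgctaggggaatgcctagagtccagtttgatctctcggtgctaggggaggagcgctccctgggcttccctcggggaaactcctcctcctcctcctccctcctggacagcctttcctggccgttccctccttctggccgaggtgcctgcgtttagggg

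Adipocyte genes showed no called difference. None of 36 tested genes on the adipocyte list passed the test, the median was 0.14, and 30 of the 36 estimates were above 0. With 1.81% of all tested probes called, a list of this size or smaller can hold none by that share alone. Adipoq, the adiponectin gene, was 14.47, 13.69 and 13.92 in XX mice, 13.34, 13.79, 14.04, 13.45 and 14.10 in XY- mice, 14.20, 14.09, 14.06, 14.32 and 13.77 in XXSry mice, and 14.22, 13.81, 13.94 and 13.74 in XY-Sry mice. The groups lay on top of each other, and the difference of 0.12 ± 0.11 (SE) had an unadjusted 95% interval of -0.10 to 0.34. That interval does not reach a 2-fold change in either direction. Lep, the leptin gene, differed by -0.28 ± 0.26 and the fatty acid carrier gene Fabp4 by 0.22 ± 0.40, with overlapping arrays in both cases. The widest estimates of the list were -0.81 ± 0.43 for the natriuretic peptide receptor gene Npr3 and 0.81 ± 0.39 for the adipogenic factor Cebpa. The list counts 1 probe per gene. Of 3 Mest probes, 1 outside that count was called at -1.06, and the others stood at -0.56 and -0.47.

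Fatty acid synthesis (14 genes, median -0.11) and brown and beige fat genes (13 genes, median -0.20) also had no called member. Ucp1, the heat-producing uncoupling protein of brown fat, spread from 4.74 to 9.47 in former-testis and from 4.61 to 13.10 in former-ovary arrays. Its difference of -0.57 ± 0.88 had an interval of -2.34 to 1.20, which reaches past a 2-fold change in either direction.

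The median of the fibroblast and progenitor list was smaller in size than those of the epithelial lists. None of its 43 tested genes was called, although 36 of the 43 estimates were below 0 and the median was -0.31. With 1.81% of all tested probes called, a list of this size can hold none by that share alone. Dcn, the decorin gene of fibroblasts, was 14.05, 13.41 and 13.90 in XX mice, 13.04, 13.18, 13.89, 13.32 and 13.96 in XY- mice, 13.73, 13.31, 13.66, 14.06 and 13.71 in XXSry mice, and 13.92, 13.27, 13.47 and 13.43 in XY-Sry mice. The difference was -0.02 ± 0.14, with a second Dcn probe at -0.33, not called. Pdgfra, the receptor that marks adipose progenitors, differed by -0.17 ± 0.19. The collagen gene Col1a1 ran from 10.36 to 12.11 (median 11.48) against 10.76 to 12.98 (median 12.37), and its difference of -0.82 ± 0.41 did not pass the test (adjusted p = 0.735, unadjusted 95% interval -1.63 to 0.00). Among the stromal genes the extreme estimates were -0.83 for Col14a1 and 1.75 ± 0.76 for Gsn, whose former-ovary arrays ran from 4.63 to 13.11.

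Of 13 smooth muscle and pericyte genes, 1 was called. Acta2, smooth muscle actin, which myoepithelial cells also make in quantity, ran from 11.89 to 13.24 in former-testis and from 12.28 to 14.03 in former-ovary arrays and differed by -1.04 ± 0.22 (SE, adjusted p = 0.0017). It was called lower on 3 of its 4 probes, and the estimates of the 4 ran from -1.24 to -1.01. Myh11, the smooth muscle myosin gene, had an estimate of -0.81 ± 0.27 (adjusted p = 0.178). The endothelial genes (21 tested, median 0.06), with Pecam1 at 0.09 ± 0.14, and the macrophage genes (18 tested, median -0.05), with Adgre1 at -0.20 ± 0.26, had no called member. In the steroid signalling list none of 18 genes was called: the estrogen receptor gene Esr1 differed by -0.07 ± 0.27 and the progesterone receptor gene Pgr, detected in 1 array, by -0.48 ± 0.17 (adjusted p = 0.261). None of the 14 proliferation genes (median 0.17) or the 7 skin and hair follicle genes (median 0.19) was called.

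**Figure D2:**
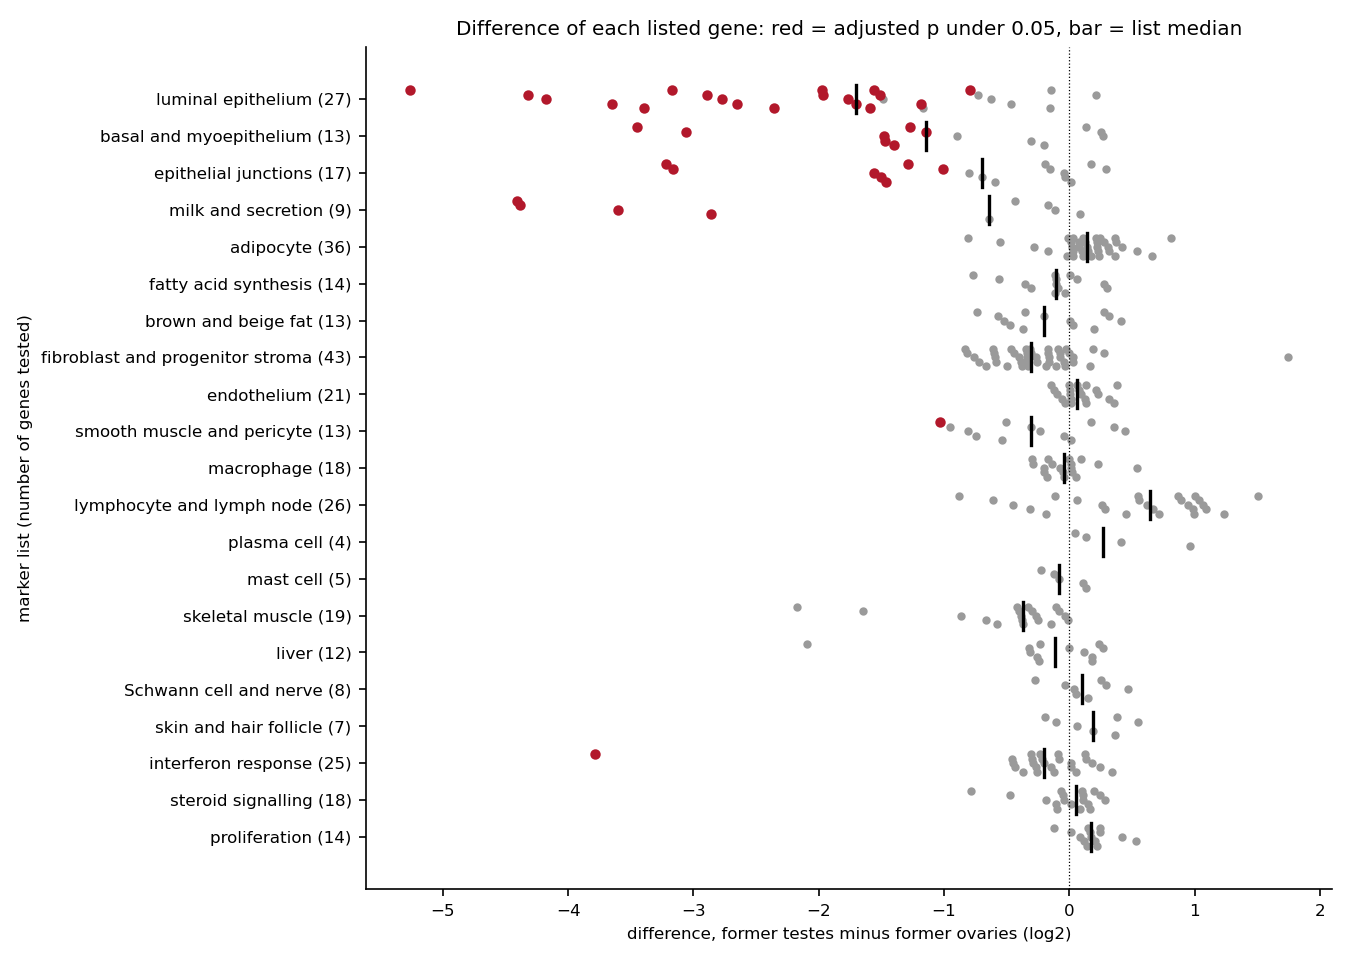
Difference between former-testis and former-ovary arrays (log2, horizontal axis) of each tested gene in 21 marker lists, with the number of genes tested in parentheses. Red points had an adjusted p under 0.05, grey points did not, and black bars are list medians. The red points lie in the 4 epithelial lists apart from Acta2 and Ido1.

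Other tissues in the dissection varied from array to array. Skeletal muscle genes (19 tested) had no called member and a median of -0.37, with all 19 estimates below 0. The muscle score, the mean of the list relative to its mean over the 55 arrays, was -1.75 to -0.999 in XX B, 1.27 to 2.51 in XY- B, -1.80 to 1.25 in XXSry B and -2.85 to 1.44 in XY-Sry B. None of the 26 lymphocyte and lymph node genes (median 0.65), 4 plasma cell genes (median 0.27), 5 mast cell genes (median -0.08), 12 liver genes (median -0.12) or 8 Schwann cell genes (median 0.10) was called. The liver score was 3.84 in XXSry B replicate 1 and between -1.59 and 1.45 in the remaining blank arrays. With muscle, lymph node and liver scores as covariates, 390 probes were called. Ido1, an enzyme that breaks down tryptophan, was the only called gene of 25 on the interferon list. Its median was 6.86 in former-testis and 10.64 in former-ovary arrays, which did not overlap (difference -3.78 ± 0.49, adjusted p = 3.62e-07), while the median of the list was -0.20.

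The marker lists took in only part of the difference. Of the 248 called-lower probes, 46 belonged to an epithelial list, 5 to another list only (3 for Acta2, 1 each for Ido1 and Mest) and 197, for 172 symbols, to none. The unlisted genes described next were chosen after their values were seen, and how many of the 172 symbols are epithelial was not counted. The chloride channel protein gene Clic6 ran from 4.94 to 6.46 against 8.43 to 10.31 (difference -3.79 ± 0.39). Fxyd3, a regulator of the sodium pump in epithelia, differed by -3.25 ± 0.45. Slc12a2, the sodium-potassium-chloride cotransporter of secretory epithelia, was detected in all 17 arrays and still did not overlap, from 10.71 to 11.91 against 12.44 to 14.04 (difference -2.03 ± 0.24). Signalling genes of the ductal tree were among the lower ones. Wnt4, a Wnt ligand that luminal cells make in response to progesterone, differed by -1.94 ± 0.37 on 1 of 2 called probes and by -1.53 ± 0.30 on the other. Wnt7b was not detected after testes and at least 1.51-fold higher after ovaries on 1 probe (a second, at -0.55, was not called), and Fgfr2, the fibroblast growth factor receptor of the bud and ducts, differed by -1.90 ± 0.25.

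The 17 probes that were higher after testes showed smaller shifts and belonged to no marker list. Prtn3, the gene of the serine protease proteinase 3, ran from 7.91 to 9.35 (median 8.56) in former-testis and from 6.73 to 8.89 (median 7.15) in former-ovary arrays, with XX B replicate 1 alone above 8.13 among the latter. Its difference was 1.12 ± 0.26 (SE, adjusted p = 0.00582). Cyp2f2, a cytochrome P450, was 13.21, 12.76, 12.59, 12.65 and 12.21 in XXSry mice, 12.56, 12.18, 12.15 and 12.01 in XY-Sry mice, 12.52, 10.87 and 11.26 in XX mice, and 10.45, 11.51, 11.66, 10.75 and 11.73 in XY- mice. A single former-ovary array, XX B replicate 1, reached the former-testis range, and the difference was 1.07 ± 0.26 (adjusted p = 0.00942). Tst, a mitochondrial enzyme that detoxifies cyanide and sulfide, differed by 0.91 ± 0.22 (adjusted p = 0.00977). Bcat2, the mitochondrial enzyme that starts the breakdown of branched-chain amino acids, differed by 0.81 ± 0.23 (adjusted p = 0.0423). Rprml and Ly6h differed by 1.07 ± 0.29 and 0.89 ± 0.23 (adjusted p = 0.0348 and 0.0195). These calls were less stable than the falls: of 30 alternative settings, the call was lost in 19 for Bcat2, 15 for Rprml, 8 for Ly6h, 7 for Tst, 4 for Cyp2f2 and 3 for Prtn3. Of the 17 probes, 13 were higher on all 5 slides, and in 1 (Ppm1m, 0.40 ± 0.10) every former-testis array lay above every former-ovary array, which held for 0.00683% of tested probes.

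To set the epithelial share apart, the 40 tested luminal and basal genes were averaged into an epithelial score per array. The score ran from -1.54 to -0.36 in the 9 former-testis arrays and from -0.06 to 1.37 in the 8 former-ovary arrays, so the groups did not overlap. Within former-ovary mice, XX B arrays were at 1.34, 0.56 and 1.37 and XY- B arrays at -0.06, 0.11, 0.11, -0.05 and 0.87. The highest former-testis scores were those of XY-Sry B replicate 2 (-0.36) and XXSry B replicate 4 (-0.43). The score uses called genes: 26 of its 40 were among the lower ones.

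**Figure D3:**
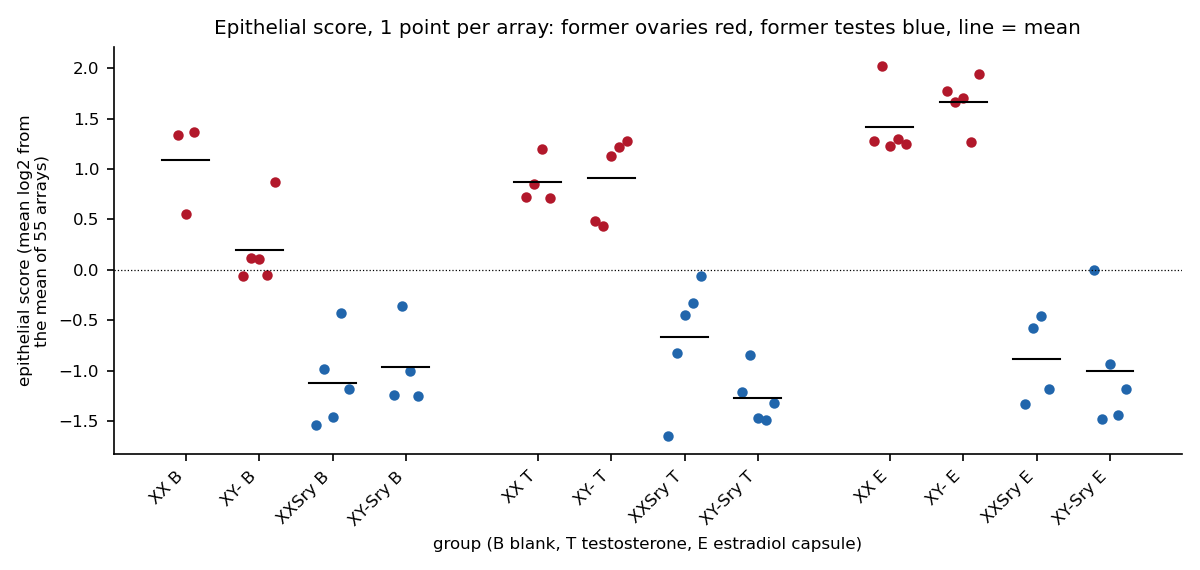
Epithelial score (vertical axis, mean log2 intensity of 40 genes relative to their mean over 55 arrays) of each adipose array by group (horizontal axis). Red points are former-ovary and blue points former-testis mice, with lines at the group means. With blank capsules the former-testis arrays lie between -1.54 and -0.36, below all former-ovary arrays.

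With the score as a covariate in the same model, 10 probes were called (0.0683% of those tested), of which 9 were also called without it. The median difference of the 248 lower probes went from -1.316 to -0.3453, and 204 of them stayed below 0. The median of the 17 higher probes was 0.7845 with the score, against 0.7474 without it. The fit takes out what varies with the score inside groups, by the same slope of a probe for all adipose groups. Where a probe is undetected in some groups, that slope can be too shallow to remove an epithelial difference. Because the score itself separates the gonad types, the standard error of a called probe rose from a median of 0.241 to 0.3192. Krt18 went to -0.09, Krt14 to 0.09, Csn3 to 0.29 and Wfdc2 to 0.80, none of them called, while Foxa1 stood at -1.14 (adjusted p = 0.647) and Tmprss2 at -1.79 (adjusted p = 0.0826). Krt18, Krt14, Wfdc2, Foxa1 and Tmprss2 are themselves among the genes averaged in the score.

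The 8 lower genes that stayed called with the score are on no epithelial list. Staying called does not show that they lie outside epithelium. Dnaic1, Tfap2b and Nrxn3 were detected in no former-testis blank array, which can flatten the shared slope. Ptn, which encodes the secreted growth factor pleiotrophin, was 12.64, 11.65 and 12.52 in XX mice, 11.28, 12.08, 11.97, 11.42 and 11.96 in XY- mice, 7.78, 8.90, 8.30, 8.31 and 7.88 in XXSry mice, and 8.0, 7.63, 7.02 and 7.54 in XY-Sry mice. It was detected in all 17 arrays, the gonad types were more than 2 log2 units apart at their nearest, and neither former-testis array with a high epithelial score stood out. Its difference was -4.12 ± 0.34 (SE, adjusted p = 2.97e-12) without and -2.69 (adjusted p = 0.0052) with the score. Dnaic1, a dynein chain gene, was not detected in any former-testis array and was detected in all 8 former-ovary arrays, which makes it at least 2.10-fold higher there (means 4.82 and 7.05, adjusted p = 2.98e-13). With the score its fitted difference was -1.85 (adjusted p = 0.000205). It was also the only probe of the contrast called with epithelial, muscle, lymph node and liver scores together, at -1.71 (adjusted p = 0.0151). Tfap2b, the AP-2 beta gene, was at least 4.84-fold higher after ovaries (means 5.09 and 8.25), and its difference with the score was -1.59 (adjusted p = 0.00554). Other Tfap2b probes were called without the score only, at -2.60 and -2.52. The neuronal adhesion gene Nrxn3, at least 2.78-fold higher after ovaries, and the sodium pump regulator Fxyd2 were at -1.74 and -2.22 with the score (adjusted p = 0.0254 and 0.0166). Cited1, a transcriptional co-regulator, Upk3a, a uroplakin gene, and BC004853 were the others, at -1.56, -1.20 and -1.36 with the score, and these 3 were named after their values were seen. Of 3 Fxyd2 probes, the others stood at -0.79 (called) and -0.06 without the score. Among the higher genes, Prtn3 alone stayed called, at 1.85 (adjusted p = 0.0254). The probe called only with the score was that of Areg, an epidermal growth factor receptor ligand on the luminal list. Areg was at 2.80 with (adjusted p = 0.00812) and 0.21 without the score, in which it is also averaged. Its probe was detected in only 3 former-testis and 1 former-ovary blank arrays. The value with the score uses the slope shared by all adipose groups, and under estradiol Areg differed by -4.35.

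**Figure D4:**
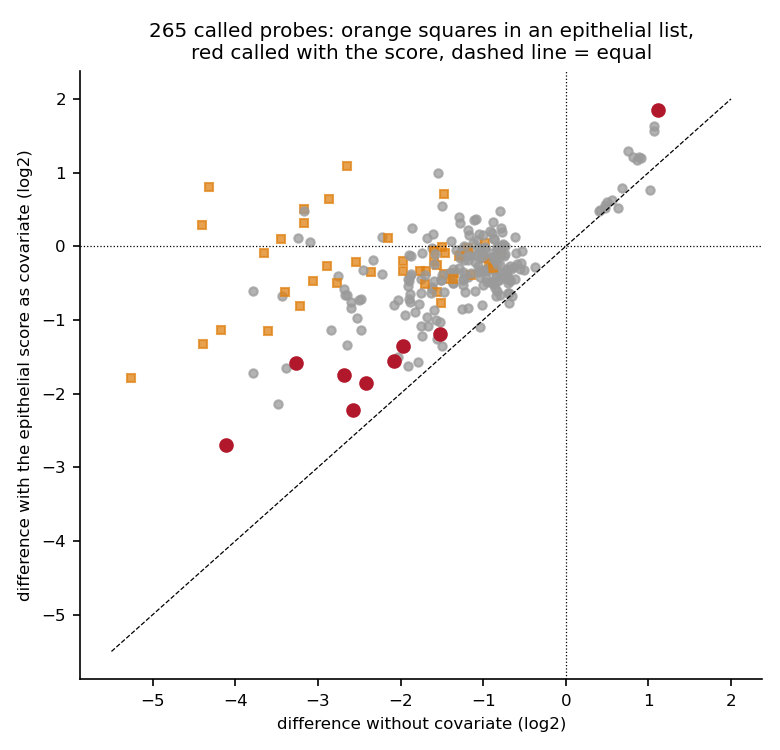
Difference of the 265 called probes with the epithelial score as a covariate (vertical axis, log2) against the difference without it (horizontal axis, log2). Orange squares belong to an epithelial list, red points were called with the score, and the dashed line marks equal values. The 248 lower probes moved toward 0, to a median of -0.3453, while the 17 higher ones had a median of 0.7845 against 0.7474, with some, such as Prtn3 (1.12 to 1.85), farther from 0.

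The fall was present in both sex chromosome complements but was estimated larger in XX mice. Within XX (XXSry B against XX B) 258 probes were called (1.76%; 227 lower, 1.55%, and 31 higher, 0.212%), and within XY (XY-Sry B against XY- B) 60 (0.41%, all lower). The 31 higher probes became 2 when XX B replicate 2 was left out, 11 and 19 when XXSry B replicate 2 or 1 was, and 51 when XX B replicate 3 was, which also took the 227 lower to 146. At an unadjusted p under 0.05 these shares were 10.1% and 8.66%. Over the 248 probes the median was -1.774 within XX and -0.9174 within XY, and 231 fell further within XX. Krt8 was at -4.03 within XX and -1.27 within XY, and Ptn at -4.04 and -4.20. The difference between the complements itself gave 0 called probes in limma, with 1847 (12.6%) at an unadjusted p under 0.05. That count was 151 without XY- B replicate 5, the XY- array with the highest epithelial score (0.87), and 586 with array weights, so it rests on few arrays. The count within XY fell to 30 without XY-Sry B replicate 4, 34 without replicate 1 and 39 without replicate 3. As given above, the muscle score also parted XX B from XY- B arrays, and its own part in the difference was not tested. With muscle, lymph node and liver scores as covariates, 367 probes were called within XX and 119 within XY. The difference between the complements again gave 0 called probes with these covariates.

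The same contrast was set against mice of the same genotypes that carried testosterone or estradiol, 19 arrays each. Label fields of XX E replicate 1 disagree on its capsule, and it was kept with estradiol. It called 3.43% of probes under testosterone and 4.39% under estradiol (12.3% and 12.8% at an unadjusted p under 0.05). Of the 248 lower probes, 224 were also called lower under testosterone (2.6% of all tested probes were) and 177 under estradiol (3.02%), with medians of -1.362 and -1.322. Of the 17 higher probes, 3 and 4 were also called higher (0.827% and 1.37%). Csn3 differed by -4.10 under testosterone and -4.00 under estradiol, Krt18 by -3.40 and -3.98, and Foxa1 by -3.97 and -3.42. The epithelial score of former-ovary mice was 0.43 to 1.27 under testosterone and 1.22 to 2.03 under estradiol.

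The change of the contrast under testosterone was called for 1 probe (0.00683%), with 624 (4.26%) at an unadjusted p under 0.05. It was Myl12a, a myosin light chain gene, whose difference of -0.50 ± 0.13 with blank capsules became 0.47 under testosterone. The count was 0 under median centring and without XX B replicate 2, XXSry B replicate 5 or XY-Sry B replicate 1.

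Under estradiol the contrast changed for 122 probes (0.834%, and 5.91% at an unadjusted p under 0.05), and for 118 without XX E replicate 1. Ptn was 12.27 ± 0.54 (SD, n = 3) in XX and 11.74 ± 0.36 (n = 5) in XY- mice with blank capsules and 10.23 ± 0.29 (n = 5) and 9.40 ± 0.53 (n = 5) with estradiol. In XXSry mice Ptn was 8.23 ± 0.44 (n = 5) with blank capsules and 10.77 ± 0.18 (n = 4) with estradiol, and in XY-Sry mice 7.55 ± 0.40 (n = 4) and 10.30 ± 0.48 (n = 5). The group means thus changed places, and the difference under estradiol was 0.72 (adjusted p = 0.28), a change from blank with an adjusted p of 4.97e-10. Dnaic1 was 8.05 ± 0.30 (n = 3) in XX mice with blank capsules and was detected in no array of any genotype under estradiol, so no fold is given there (change from blank, adjusted p = 3.91e-08). Nrxn3 was 8.18 ± 0.19 in XX and 7.01 ± 0.80 in XY- mice with blank capsules and 5.61 ± 0.40 and 5.82 ± 0.62 with estradiol, while no former-testis blank array and 1 former-testis estradiol array detected it (adjusted p of the change 1.06e-05). Fxyd2 differed by -0.65 under estradiol, against -2.58 with blank capsules (adjusted p of the change 0.00209). Tfap2b still differed under estradiol, by -1.71 (adjusted p of the change = 0.017). These changes contain the same blank arrays by which the 5 genes had been picked. The other direction was seen in Phactr1, an actin and phosphatase regulator. Its probe was not detected in any blank array, and under estradiol it was 6.63 ± 0.28 in XX and 6.58 ± 0.37 in XY- mice, with 4.77 ± 0.15 in XXSry and 4.82 ± 0.23 in XY-Sry mice.

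**Figure D5:**
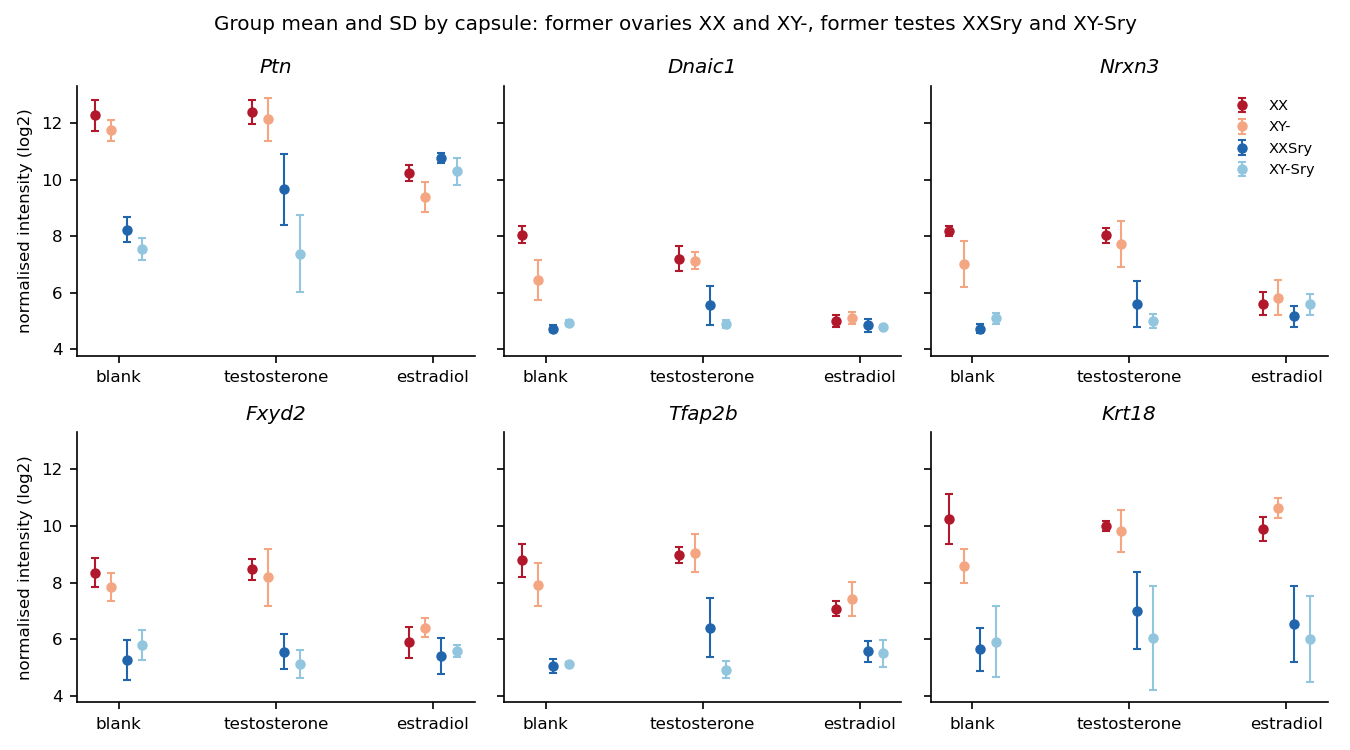
Normalised intensity (log2, vertical axis) of 6 genes by capsule (horizontal axis), as the mean of each genotype with SD bars over 3 to 5 arrays. Red and light red are former-ovary mice (XX and XY-), dark and light blue former-testis mice (XXSry and XY-Sry). Krt18 keeps its gap under all 3 capsules, while Ptn crosses and Dnaic1, Nrxn3 and Fxyd2 draw together under estradiol.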

How the data were processed

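Per the file headers, each array has a column of average signals per probe, deposited as linear intensity values, and a column with the deposited detection p-value of each probe; no earlier correction or scaling could be seen in them. The submitters' processing notes name lumi; the scanner and array version are not given in the sources used here. The 55 columns of bead standard errors were not used. Arrays were grouped by their labels. Intensities were corrected with normexp using the deposited detection p-value (offset 16), quantile-normalised over the 55 adipose arrays and put on the log2 scale (limma 3.58.1, R 4.3.3); the log2 step was made here from the deposited intensities. Probes detected at p under 0.01 on 3 or more arrays were tested. A mean was fitted for each of the 12 adipose groups, with empirical Bayes moderation and Benjamini-Hochberg adjustment over 14636 probes; all adjusted p-values are limma's. The model was tested on simulated data. Intervals are unadjusted at 95%. The number of arrays limits the precision. Gene symbols were updated through RefSeq names, which matched 96.8% of tested probes; some fixed markers, such as Epcam, were not analysed here, and some genes the naming rule took in are not reported here.

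Named genes were a fixed set, the 6 largest called differences each way with the same sign in both complements and on every slide, the 2 smallest adjusted p of each list, up to 5 unlisted genes each way that stayed called with the epithelial score, and the 2 smallest adjusted p of each interaction; others are examples from the lists. Lists count the brightest probe of a gene. The lists were luminal, basal, junction, milk, adipocyte, fatty acid synthesis, brown fat, fibroblast, endothelium, smooth muscle, macrophage, lymphocyte, plasma cell, mast cell, skeletal muscle, liver, Schwann cell, skin, mesothelium (no gene tested), interferon, steroid and proliferation genes. Members and lists were chosen with earlier results of these data known. Alternatives changed background, scaling, filter, slide block, arrays, weights and covariates.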

Additional observations from a re-analysis of the deposited data

Results flagged for a closer look

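In groups of 4 or 5 arrays, a single array stood apart from the rest in 11 of 147 pairs of gene and group; the criterion marks about 1 in 20 by chance. XY- B replicate 5 was the highest of its group for Krt18 (9.65, next 8.54), Krt5 (7.34, next 6.08) and Cldn3 (9.15, next 7.66). XY-Sry B replicate 2 was the highest for Tmprss2 (6.82, next 5.14), Cldn3 (6.79, next 4.99), Rprml (8.91, next 7.60) and Bcat2 (13.03, next 12.10), and the lowest for the T cell gene Cd3e (5.31, with the others 3 or more log2 units higher). These 2 arrays also have the highest epithelial score of their groups. XXSry B replicate 2 was the highest for Krt17 (7.98, next 5.22) and Btn1a1 (6.00, next 4.99). XY-Sry B replicate 4 was the lowest for Esr1 (7.02, next 8.26).

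The gonad contrast differed from that with blank capsules, by a test of the change itself, for Myl12a under testosterone (0.97 ± 0.18, SE, adjusted p = 0.0227 in limma) and, under estradiol, for Phactr1 (-1.84 ± 0.15, adjusted p = 3.85e-12). The Phactr1 probe was at background in every blank array.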

How the results depend on the processing

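No paired analysis was possible because the replicate numbers were given here in accession order and pair no arrays; slides, which held both gonad types, were fitted as a block instead and gave 286 called probes. The 265 called probes became 10 with the epithelial score, 1 with all 4 scores (epithelial, muscle, lymph node and liver, added after seeing the data) and 471 with array weights; other settings gave 179 to 390, and leaving out 1 array gave 203 to 272. The 17 higher probes among them became 5 (blank arrays only), 9 (with slide as a block too), 8 (median centring), 57 (muscle, lymph node and liver scores) and 67 (array weights), and the 31 within XX became 4, 2, 22, 104 and 200 under the same settings and also 8 with no background correction and 10 with slide as a block over all arrays. The 258 within XX became 144 (blank arrays with slide as a block), 163 (detected in at least 0.5 of the arrays), 830 (array weights) and 1 (epithelial or all 4 scores), with 197 to 274 when 1 array was left out. The 60 within XY became 24 (blank arrays with slide), 39 (median centring), 155 (array weights), 7 (epithelial score), 119 (muscle, lymph node and liver scores) and 1 (all 4 scores), with 30 to 71 when 1 was left out. The 0 for gonad by sex chromosome became 1 (no background correction, or the stricter detection filter) and 586 (array weights), with 0 to 151. The 1 for gonad by testosterone became 0 (median centring) and 2 (array weights, epithelial score or all 4 scores), with 0 to 2. The 122 for gonad by estradiol became 45 (stricter filter) and 280 (array weights), with 106 to 144. Median centring moved the median of all probes to -0.1151 within XX and 0.2008 within XY, from 0.002104 and 0.04326. The causes were not tested.

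Signs turned as follows. With the epithelial score the difference was 1.09 for Krt8, 0.093 for Krt14, 0.29 for Csn3, 0.80 for Wfdc2, 0.50 for Cldn4, 0.070 for Lep, 0.37 for Pdgfra, 0.35 for Dcn, 0.21 for Adgre1, 0.43 for Esr1 and 0.17 for Pgr. With all 4 scores it was 0.84 for Krt8, 0.46 for Krt14, 0.63 for Csn3, 0.76 for Wfdc2, 0.71 for Cldn4, -0.17 for Fabp4, 0.16 for Pdgfra, 0.25 for Dcn, 0.60 for Ckm, 0.088 for Esr1 and 0.30 for Pgr. With muscle, lymph node and liver scores Ckm was 0.26 and Esr1 0.0012. Dcn was 0.026 with slide as a block, 0.0098 with blank arrays and slide, and 0.035 under median centring. Cd3e was 0.028 with blank arrays and slide, 0.25 with array weights and 0.39 without the 2 former-testis arrays of highest epithelial score (added after seeing the data). Leaving out 1 array gave -0.12 to 0.041 for Dcn, -0.34 to 0.14 for Esr1, -0.65 to 0.38 for Cd3e, -0.067 to 0.55 for Fabp4 and -0.86 to 0.14 for Ckm. None of these genes is called with a turned sign.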
